A study of Mus musculus with 12 samples.

Results

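Intermediate progenitors of the embryonic cortex were followed through 10 genes that mark them or act in their step to neurons: Eomes, Neurog1, Neurog2, Btg2, Gadd45g, Insm1, Sstr2, Rhbdl3, Nhlh1 and Elavl2. They were found by gene symbol among the 51912 genes of each count table, and all 10 had counts. The libraries hold total RNA of the cerebral cortex of mice, micro-dissected at embryonic day 15.5. Of the 12, 6 came from Emx1-Cre Arid1a conditional mutants and 6 from controls, and every library is labelled batch 1. Litter 1 gave mutants 1 and 2 and controls 1 to 4, and litter 2 gave mutants 3 to 6 and controls 5 and 6. Mutant 4 and controls 2 to 5 were male and the other libraries female, so genotype overlapped in part with litter and with sex. Arid1a encodes a subunit of the BAF chromatin remodelling complex. Emx1-Cre recombines in dorsal telencephalic progenitors and in the cells they give rise to, so interneurons, vessels and other cells from elsewhere keep the gene. For the controls the labels say "control" and list no alleles, and the alleles of the mutants are given no further than above.

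Intermediate progenitors arise from radial glia, the stem cells that line the ventricle, and divide in the subventricular zone to give projection neurons. The proneural factors NEUROG1 and NEUROG2 are basic helix-loop-helix proteins that bind E-boxes (CANNTG) with an E-protein partner and push radial glia toward the neuronal fate. EOMES (TBR2), a T-box factor, is the defining protein of intermediate progenitors, and the zinc finger protein INSM1 promotes their formation. BTG2 and GADD45G restrain the cell cycle and are high in cells about to divide into neurons, while NHLH1 and the RNA-binding protein ELAVL2 appear as neurons are born.

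Counts on genes ran from 643197 to 3525121 per library, and mutants 1 and 4 were the shallowest. Arid1a itself averaged 447 CPM (gene counts over TMM-scaled library sizes) in mutants and 510 CPM in controls. Its log2 fold change was -0.30 with an SE of 0.0958 and did not pass (adjusted p = 0.277). Of genes that mark cortical projection neurons, Tbr1 averaged 217 CPM over the mutants and 216 CPM over the controls, and Bcl11b averaged 864 and 653 CPM. A gene total does not show the loss of a single floxed exon. Control 2 stood apart in radial glia markers: it had the lowest mean score of 11 such genes, -1.93, where 0 is the mean of the 12 libraries and the unit is 1 SD. Summed markers of the ganglionic eminence and striatum ran from 1653 to 3708 CPM in mutants and from 1321 to 3273 CPM in controls. Meis2, at a mean of 1892 CPM, was the most abundant of them. Whether the dissections differed was not tested. The part of these markers in the results was not tested beyond the fit with the striatal score, given beside Elavl2 and each result it changed.

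Per kilobase of merged exon, Elavl2 was the most abundant of the 10 genes, at 56.3 ± 6.66 CPM per kb (mean ± SD, n = 12 libraries). Eomes followed at 23.4 ± 7.40, Insm1 at 20.9 ± 2.70 and Neurog2 at 15.8 ± 4.83 CPM per kb. Sstr2 (10.6 ± 3.77), Gadd45g (10.06 ± 3.59), Rhbdl3 (9.80 ± 4.97) and Btg2 (9.60 ± 2.88) formed a middle group. Nhlh1 had 4.01 ± 1.65 CPM per kb and Neurog1, the lowest, 2.15 ± 1.77. Each gene was compared with the next in this order by a two-sided exact permutation test of the paired differences, adjusted over 9 pairs. Elavl2 exceeded Eomes in 12 of 12 libraries (adjusted exact p = 0.00146), and Btg2 exceeded Nhlh1 and Nhlh1 exceeded Neurog1 in all 12 (0.00146 each). Insm1 exceeded Neurog2 in 11 of 12 (exact p = 0.00659), and Neurog2 exceeded Sstr2 in 11 of 12 (0.00703). Eomes and Insm1 did not differ beyond their spread (exact p = 0.292), nor did the neighbours within the middle group (0.904 for each pair). These tests pooled the genotypes, and the order of means in the middle group was reversed between them. In controls it was Rhbdl3 12.5, Sstr2 11.8, Btg2 8.51 and Gadd45g 7.18 CPM per kb. In mutants it was Gadd45g 12.9, Btg2 10.7, Sstr2 9.37 and Rhbdl3 7.13 CPM per kb. The order within a genotype was not tested. ELAVL2 is also made by postmitotic neurons, which a whole cortex holds together with its progenitors.

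**Figure D1:**
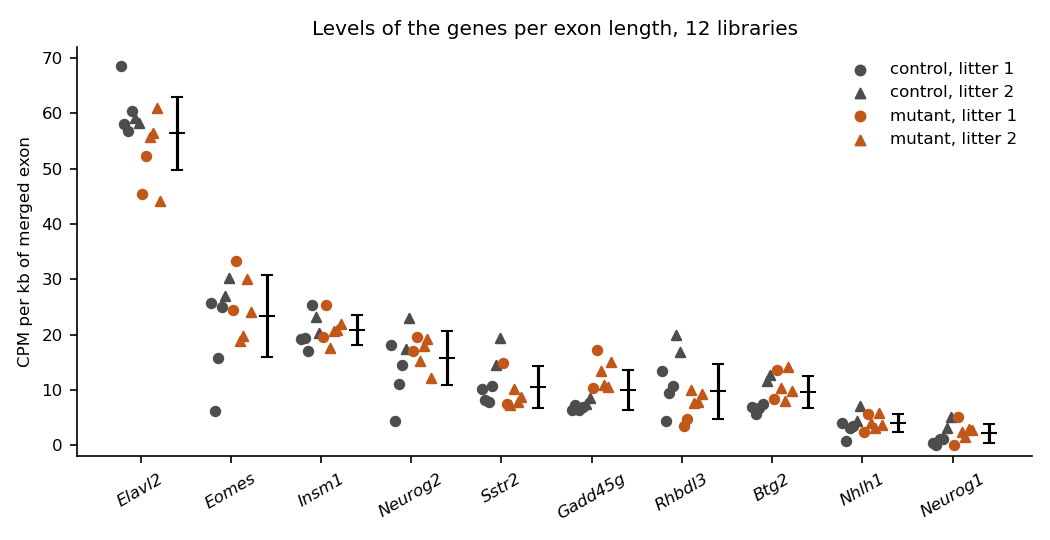
CPM per kb of merged exon (vertical axis) for the 10 genes in falling order; each point is a library, coloured by genotype and shaped by litter, and the bar is the mean ± SD of 12 libraries. Elavl2 lies above Eomes in 12 of 12 libraries, while Sstr2, Gadd45g, Rhbdl3 and Btg2 overlap.

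Mutant against control asked whether these genes depend on Arid1a. With the quasi-likelihood test of edgeR and an adjusted p under 0.05 as the threshold, 0 of the 9 genes that could be tested passed, where 0.215% of all 10678 genes tested did (17 lower, 6 higher). Of the 9 log2 fold changes 6 were negative, with a median of -0.17 and a range of -1.24 to 0.76, beside a median of 0.00 and 50.1% negative over all genes. At an unadjusted p under 0.05 stood 3 of the 9, Rhbdl3 and Sstr2 with lower values and Gadd45g with a higher one, beside 8.78% of all genes. DESeq2 called 1 of the 9, Rhbdl3, and limma-voom called 0. Each log2 fold change here is mutant minus control from a fit with terms for litter and sex, so it need not match the ratio of the mean levels. In RNA of a whole tissue, fewer cells of a type and less RNA per cell cannot be told apart.

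**Figure D2:**
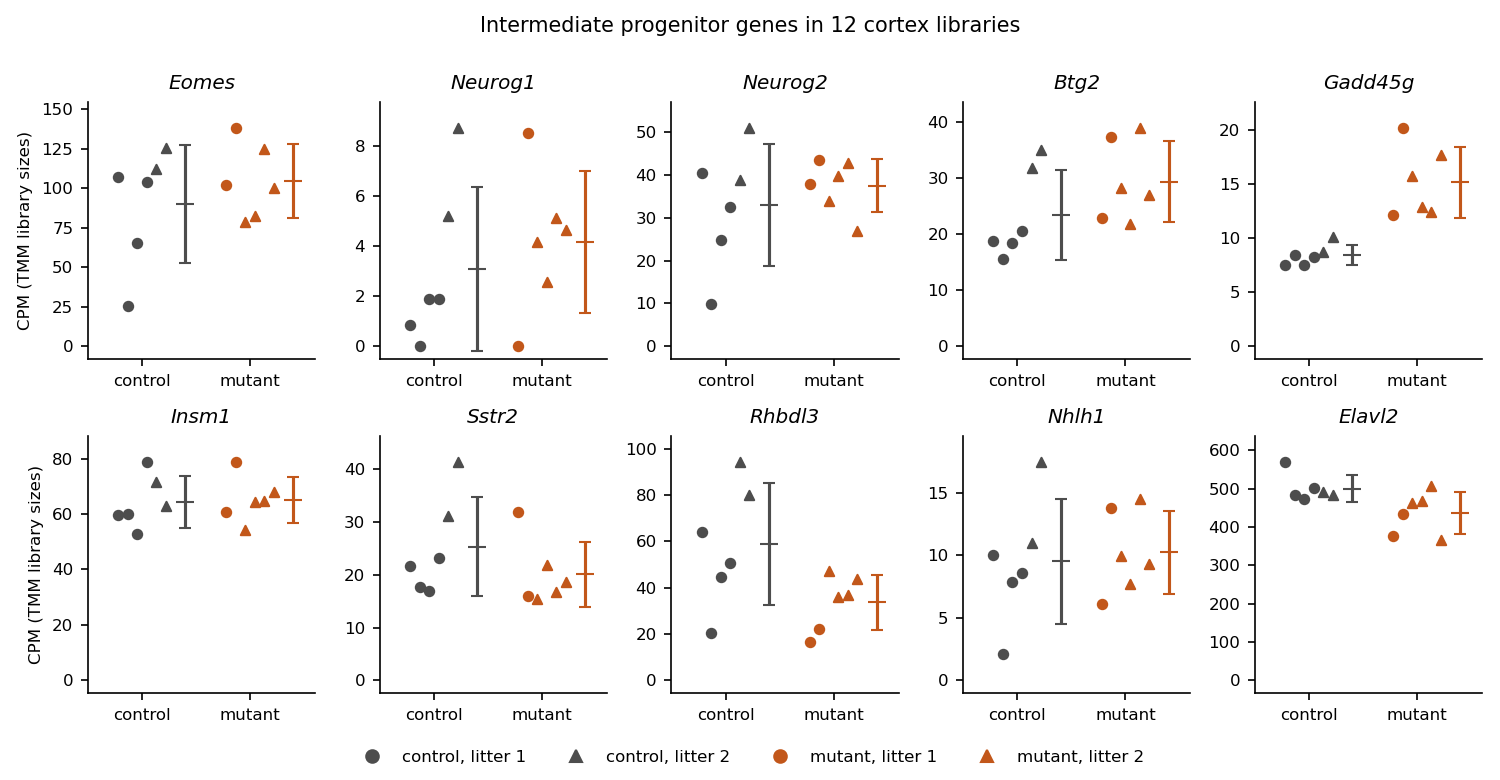
CPM of each gene (vertical axes, a scale for each gene) in the 6 control and 6 mutant libraries; circles are litter 1, triangles litter 2, and bars the mean ± SD of each group. The mutants of Gadd45g, at 12.2 to 20.2 CPM, all lie above the controls, at 7.52 to 10.1 CPM, and control 2 is the lowest library for Eomes, Neurog2 and Nhlh1.

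Eomes (mm10 chromosome 9, 118478212 to 118486132, plus strand) had 78.6, 101 and 138 CPM as the lowest, median and highest of the 6 mutants, and 25.4, 106 and 126 CPM in the controls. The groups overlapped, and 1 control, control 2, lay far below the other 11 libraries. Mutants averaged 104 ± 23.5 CPM and controls 90.0 ± 37.5 CPM (SD, n = 6 each), and the log2 fold change was -0.11 (SE 0.367, adjusted p = 0.985, 95% interval -0.94 to 0.73). Its sign rested on the model, at 0.14 without the sex term, 0.20 without litter and sex terms and 0.07 with the striatal score as a further term. The antisense gene Gm33460 overlaps 118 bases of Eomes exon with 19 counts in all against 2157, and whether the counting used strand is not given in the sources used here.

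Neurog2 (chromosome 3, 127633135 to 127635631, plus strand) ran from 27.0 through a median of 38.9 to 43.6 CPM in mutants, and from 9.89 through 35.6 to 51.1 CPM in controls. The controls spanned the mutants on both sides, with control 2 again the lowest and control 6 the highest. The log2 fold change of Neurog2 was -0.17 (SE 0.287, adjusted p = 0.953, interval -0.79 to 0.45), and it turned to 0.04 without the sex term, 0.16 without both terms and 0.03 with the striatal score. Neurog1 (chromosome 13, 56250478 to 56252163, minus strand), its paralog, was too low to test, at 0 to 19 counts per library. Its mean was 4.17 ± 2.83 CPM over the mutants and 3.09 ± 3.29 CPM over the controls (SD, n = 6 each). A count of 0 was recorded in mutant 1, where it allows up to 4.56 CPM by counting error alone (3 counts), and in control 2, where it allows up to 2.12 CPM.

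Insm1 (chromosome 2, 146221921 to 146225020, plus strand) was, with Elavl2, the steadiest of the genes, with a coefficient of variation of 12.9% over 12 libraries. Mutants had 54.3, 64.4 and 78.7 CPM as lowest, median and highest, and controls 52.7, 61.5 and 78.8 CPM. The ranges were almost the same, and control 2, at 60.1 CPM, was not low in this gene. Its log2 fold change of 0.04 (SE 0.148, adjusted p = 0.985) had an interval of -0.27 to 0.36. Nhlh1 (chromosome 1, 172052292 to 172057573, minus strand), a helix-loop-helix factor of newborn neurons, had 6.08, 9.63 and 14.6 CPM in mutants and 2.12, 9.31 and 17.5 CPM in controls. The groups overlapped across most of their range, with control 2 lowest and control 6 highest. The log2 fold change of Nhlh1 was -0.38 (SE 0.325, adjusted p = 0.826, interval -1.07 to 0.30).

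Gadd45g (chromosome 13, 51846678 to 51848468, plus strand), a stress- and differentiation-linked gene that slows the cell cycle, was the 1 member whose groups did not overlap over all 12 libraries. Mutants had 12.2, 14.3 and 20.2 CPM as lowest, median and highest, and controls 7.52, 8.35 and 10.1 CPM. All 6 mutants lay above all 6 controls, as in 0.337% of all genes tested, a share that leaves out genes with all mutants below all controls. The same order within each litter follows from this and adds no further support. Ranges were 12.2 to 20.2 against 7.52 to 8.48 CPM in litter 1, and 12.4 to 17.7 against 8.68 to 10.1 CPM in litter 2. The level rested on 8 to 57 counts per library. Log2 CPM of Gadd45g went with log10 depth at r = -0.45 over the 12 libraries. Mutants 1, 2, 4 and 6 were the shallowest libraries, while mutant 3, at 15.8 CPM of Gadd45g, was the deepest. The part of depth was not tested. Means were 15.2 ± 3.29 and 8.42 ± 0.958 CPM (SD, n = 6 each), and the log2 fold change of 0.76 (SE 0.251, unadjusted p = 0.00755, interval 0.23 to 1.28) missed the threshold over all genes (adjusted p = 0.295). It passed in the fit without litter and sex terms, at 0.85 (adjusted p = 0.0302). Leaving out 1 library at a time gave 0.60 to 0.92, and none of these passed.

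Btg2 (chromosome 1, 134075170 to 134079120, minus strand), an antiproliferative gene switched on in progenitors committed to neurogenic division, had 21.8, 27.6 and 39.0 CPM in the mutants against 15.5, 19.7 and 35.0 CPM in the controls. In litter 1 both mutants (22.8 and 37.2 CPM) lay above the 4 controls (15.5 to 20.5 CPM). The share of all genes that separate in this way within 1 litter was not counted. In litter 2 the mutants, at 21.8 to 39.0 CPM, spanned the controls at 31.8 and 35.0 CPM. The log2 fold change of Btg2 was 0.05 (SE 0.216, adjusted p = 0.993, interval -0.40 to 0.51), and in litter 2 alone it was -0.24.

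The proneural and T-box genes whose levels moved together and Gadd45g, whose groups did not overlap, are shown by the 250 bases before their RefSeq start (GRCm38.p6, the assembly of mm10), 5′ to 3′ on the strand of the gene. Capitals mark E-boxes, CANNTG, which reads the same on both strands and which 66.2% of 32851 RefSeq windows of this length hold at least once. The windows are chr13:51846425-51846674 (plus strand) for Gadd45g, chr1:172057597-172057846 (minus) for Nhlh1, chr9:118477939-118478188 (plus) for Eomes and chr3:127632886-127633135 (plus) for Neurog2.
Gadd45g: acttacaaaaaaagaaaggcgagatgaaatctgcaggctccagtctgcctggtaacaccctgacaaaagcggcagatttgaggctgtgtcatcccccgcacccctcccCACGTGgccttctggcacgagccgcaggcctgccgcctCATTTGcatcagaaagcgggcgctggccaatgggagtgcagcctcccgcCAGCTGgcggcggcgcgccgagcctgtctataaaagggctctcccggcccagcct
Nhlh1: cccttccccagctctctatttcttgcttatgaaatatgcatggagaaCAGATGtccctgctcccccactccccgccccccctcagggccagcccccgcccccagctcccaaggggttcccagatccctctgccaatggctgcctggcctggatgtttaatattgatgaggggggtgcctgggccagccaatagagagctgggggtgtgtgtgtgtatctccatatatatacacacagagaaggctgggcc
Eomes: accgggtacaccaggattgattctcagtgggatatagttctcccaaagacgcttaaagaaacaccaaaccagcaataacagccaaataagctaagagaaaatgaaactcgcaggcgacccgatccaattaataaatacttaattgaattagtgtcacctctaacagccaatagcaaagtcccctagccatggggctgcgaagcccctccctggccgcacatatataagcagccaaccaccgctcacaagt
Neurog2: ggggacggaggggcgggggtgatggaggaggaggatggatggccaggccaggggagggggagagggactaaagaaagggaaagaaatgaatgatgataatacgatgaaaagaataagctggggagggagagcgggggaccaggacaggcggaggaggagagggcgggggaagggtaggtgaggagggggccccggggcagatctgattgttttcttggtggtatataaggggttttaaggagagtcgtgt
The window of Gadd45g held 3 E-boxes. CACGTG began 142 bases before the start, CATTTG 104 bases and CAGCTG 55 bases before it. Nhlh1 held 1, CAGATG, at 203 bases, a form found in 14.4% of all windows. Those of Eomes and Neurog2 held no CANNTG, nor did those of Neurog1, Btg2 and Sstr2, which says only that these letters are not in these 250 bases. Windows were matched for 8 of the 10 genes. Of the 6 windows of Elavl2, 3 overlapped and held the same CATGTG site, at 146, 131 and 117 bases before their starts.

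Rhbdl3 (chromosome 11, 80300912 to 80355955, plus strand), a rhomboid-family membrane protein, had the lowest genotype value of the 9 genes. Mutants had 16.7, 36.4 and 47.1 CPM as lowest, median and highest, and controls 20.5, 57.4 and 94.3 CPM. All 6 mutants lay below the control mean, but the groups overlapped. Control 2 at 20.5 CPM lay between mutants 1 and 2, and control 3 at 44.8 CPM lay below mutant 3 at 47.1 CPM. In litter 2 the 4 mutants, at 36.0 to 47.1 CPM, lay below both controls, at 80.0 and 94.3 CPM. The share of all genes that separate in this way within 1 litter was not counted. The means were 33.8 ± 11.9 and 59.1 ± 26.3 CPM (SD, n = 6 each), and the log2 fold change was -1.24 (SE 0.237, unadjusted p = 0.000126, interval -1.75 to -0.73). The adjusted p of 0.0525 missed the threshold narrowly and fell on either side of it with the model. Rhbdl3 passed with DESeq2 (-1.26, adjusted p = 0.00133), in the edgeR fits with no filter (1.11e-11, where 261 genes passed), without the sex term (0.0268), with the striatal score (0.038), in litter 2 alone (0.0221) and in females alone (0.0151), and without control 2 (0.00574) or control 4 (0.0383). In all it passed in 8 of 23 alternatives. The test was not passed without any 1 mutant (0.0921 to 0.198), without control 1, 3, 5 or 6 (0.0546 to 0.135), with RLE size factors (0.0538), with limma-voom (0.0842), without the litter term (-0.89, 0.533), without litter and sex terms (-0.73, 0.404) or without mutants 1 and 4 (-1.20, 0.429). Log2 CPM of Rhbdl3 went with log10 depth at r = 0.61 over the 12 libraries, and the part of depth was not tested.

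Sstr2 (chromosome 11, 113619342 to 113626028, plus strand), a G protein-coupled receptor of the peptide somatostatin, had 15.5, 17.6 and 31.9 CPM in mutants and 17.0, 22.4 and 41.4 CPM in controls. The highest mutant was mutant 1 of litter 1, and the 2 highest controls were those of litter 2. Within litter 2 the groups did not overlap (15.5 to 21.8 against 31.2 and 41.4 CPM), and within litter 1 they did. The groups of Elavl2 in litter 1 and of Neurog1 in litter 2 did not overlap either. With so few libraries such separation can arise by chance, and its share over all genes was not counted. The log2 fold change of Sstr2 was -0.70 (SE 0.256, unadjusted p = 0.0135, adjusted p = 0.358). In litter 2 alone it was -1.09 (adjusted p = 0.062), and without control 6 it was -0.25 (0.911). Sstr2 lies within Slc39a11, a gene on the opposite strand with 3333 counts in all against 496, and their exons do not overlap.

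Elavl2 (chromosome 4, 91250763 to 91400785, minus strand) had 367, 449 and 507 CPM as lowest, median and highest in mutants, and 472, 488 and 569.7 CPM in controls. Of the 6 mutants 5 lay below all controls, and mutant 5 was the exception. Means were 436 ± 54.9 and 501 ± 35.3 CPM (SD, n = 6 each), and the log2 fold change was -0.22 (SE 0.111, unadjusted p = 0.0582, adjusted p = 0.592, interval -0.46 to 0.01). Over the 12 libraries log2 CPM of Elavl2 was lower where markers of interneurons were higher (r = -0.71, adjusted permutation p = 0.031 over 36 relations, rho = -0.71, adjusted 0.0757), with r = -0.66 (permutation p = 0.0232) without mutants 1 and 6 and -0.68 and -0.82 within the litters. With the striatal marker score r was -0.70 (adjusted permutation p = 0.0456, rho = -0.62, adjusted 0.137), and -0.47 (permutation p = 0.165) without those 2 mutants, with -0.69 and -0.71 within the litters and -0.75 in the 6 controls. With log10 depth Elavl2 had r = 0.66, and mutants 1 and 6, the lowest in Elavl2, were among the 4 shallowest libraries. By genotype 10 of 10 tested interneuron markers had positive values (median 0.44, 0 called), summing to 1968 to 3077 CPM per mutant library and 1726 to 3952 CPM per control library. The 4 tested striatal markers were positive too (median 1.19, 0 called). With the striatal score as a further term the genotype log2 fold change of Elavl2 was -0.17 (SE 0.101, edgeR adjusted p = 0.706). Beyond this fit, the part of these markers and of depth in the Elavl2 values was not tested.

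**Figure D3:**
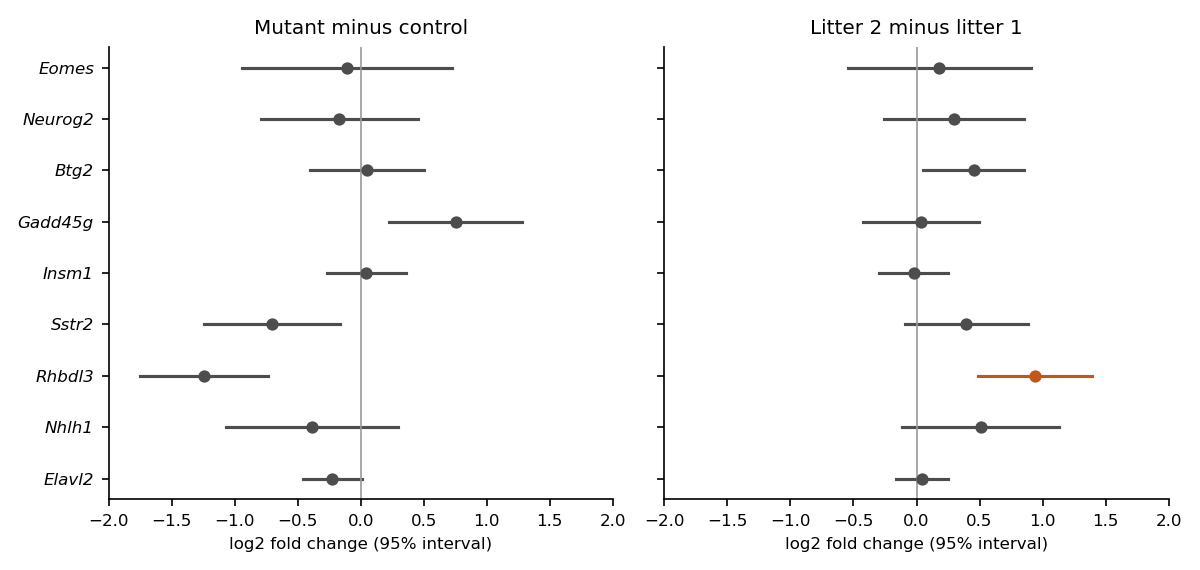
Log2 fold change with its 95% interval (horizontal axes) for the 9 tested genes, mutant minus control on the left and litter 2 minus litter 1 on the right, from 1 edgeR fit with litter, sex and genotype. Orange marks an adjusted p under 0.05, which Rhbdl3 reaches by litter (0.94) and none reaches by genotype.

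Between the litters, 1 of the 9 genes passed the edgeR test, beside 1.31% of all genes tested. Rhbdl3 rose in litter 2, from 36.5 ± 19.4 to 56.3 ± 24.7 CPM (SD, n = 6 each), by 0.94 on the log2 scale (SE 0.211, adjusted p = 0.0444, interval 0.48 to 1.39). Libraries of litter 1 ran from 16.7 to 64.0 CPM of Rhbdl3 and those of litter 2 from 36.0 to 94.3 CPM, so the litters overlapped. The call was lost with limma-voom (adjusted p = 0.066), in females alone (0.221), without any 1 mutant (0.0679 to 0.135), without mutants 1 and 4 (0.19) and without control 3 (0.0854) or control 5 (0.273). Among the 8 others, 7 had a positive value that did not pass, among them Nhlh1 at 0.51 (SE 0.296, adjusted p = 0.434), Btg2 at 0.45 (SE 0.190, unadjusted p = 0.0290, adjusted p = 0.263) and Sstr2 at 0.39 (adjusted p = 0.439). The median of the 9 litter values was 0.30, beside -0.01 over all genes. Eomes had 0.18 (adjusted p = 0.855), Gadd45g 0.04 (0.971) and Insm1 -0.02 (0.965).

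By sex, male minus female in the same fit, 0 of the 9 genes passed with edgeR and 0 stood at an unadjusted p under 0.05, where 1 gene of all those tested passed (0.00937%). Of the 9 values 8 were negative, with a median of -0.27, beside a median of -0.004 and 50.8% negative over all genes. Nhlh1 had the lowest, -0.67 (SE 0.323, unadjusted p = 0.0517, adjusted p = 0.712). By sex 11 of 11 tested radial glia genes and 11 of 12 mitosis genes were negative too, and 5 of 11 newborn neuron genes. The difference of the genotype effect between litters was tested by an interaction term, and 0 of the 9 passed, as did 0% of all genes with edgeR, 0 with limma-voom and 6 with DESeq2. At an unadjusted p under 0.05 stood 2 of the 9, beside 7.27% of all genes. These were Sstr2, with an interaction of -1.22 (SE 0.401, unadjusted p = 0.00749, adjusted p = 0.529), and Btg2, with -0.80 (SE 0.353, unadjusted p = 0.0364, adjusted p = 0.642).

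Across the libraries Eomes, Neurog2, Nhlh1 and Btg2 varied together. Of 36 pairs among the 9 genes, 29 had a positive Pearson r of log2 CPM (n = 12 libraries), and 6 passed a permutation test adjusted over the 36. Eomes and Neurog2 had r = 0.94 (permutation p = 0.0009, adjusted 0.0101) and Spearman's rho = 0.86 (adjusted permutation p = 0.0266). Without the 2 libraries farthest from the Eomes median, controls 2 and 3, r was 0.53 (permutation p = 0.112), so the size of r rested on those samples. Without control 2 alone r was 0.72. Leaving out the farthest libraries narrows the range, which can lower r by itself, so it cannot decide whether the relation holds in the others. Within litter 1, which holds controls 2 and 3, r was 0.99, and within litter 2 it was 0.51. Eomes and Nhlh1 had r = 0.90 (adjusted permutation p = 0.0101) and rho = 0.83 (0.0272), and r stayed at 0.68 (permutation p = 0.0309) without those 2 libraries, with 0.92 and 0.84 within the litters. Btg2 and Nhlh1 had r = 0.81 (adjusted permutation p = 0.00684) and rho = 0.80 (0.0358), and r = 0.75 (permutation p = 0.00959) without mutant 5 and control 2, with 0.71 and 0.90 within the litters. Neurog2 with Nhlh1 (r = 0.88, adjusted permutation p = 0.0123, rho = 0.77, adjusted 0.0459) and Eomes with Btg2 (r = 0.72, adjusted permutation p = 0.0101, rho = 0.76, adjusted 0.0459) each fell to r = 0.59 (permutation p = 0.0713 and 0.0729) without the 2 farthest libraries. Within litters 1 and 2 these were 0.91 and 0.69 for the former pair, and 0.72 and 0.84 for the latter. Neurog2 with Btg2 had r = 0.67 (adjusted permutation p = 0.0285) and rho = 0.71 (0.0682), and r = 0.42 (permutation p = 0.233) without controls 2 and 3, with 0.67 and 0.48 within the litters. Within the 6 mutants r of Neurog2 was 0.45 with Eomes, 0.34 with Nhlh1 and 0.38 with Btg2, and within the 6 controls 0.99, 0.98 and 0.75. In mutants and controls Eomes with Nhlh1 had 0.64 and 0.96, Eomes with Btg2 0.76 and 0.71, and Btg2 with Nhlh1 0.96 and 0.80. Insm1, Sstr2, Rhbdl3, Gadd45g and Elavl2 were in none of the 6 pairs, and the lowest r was that of Gadd45g and Elavl2, -0.64 (permutation p = 0.0218, adjusted 0.112, rho = -0.69).

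**Figure D4:**
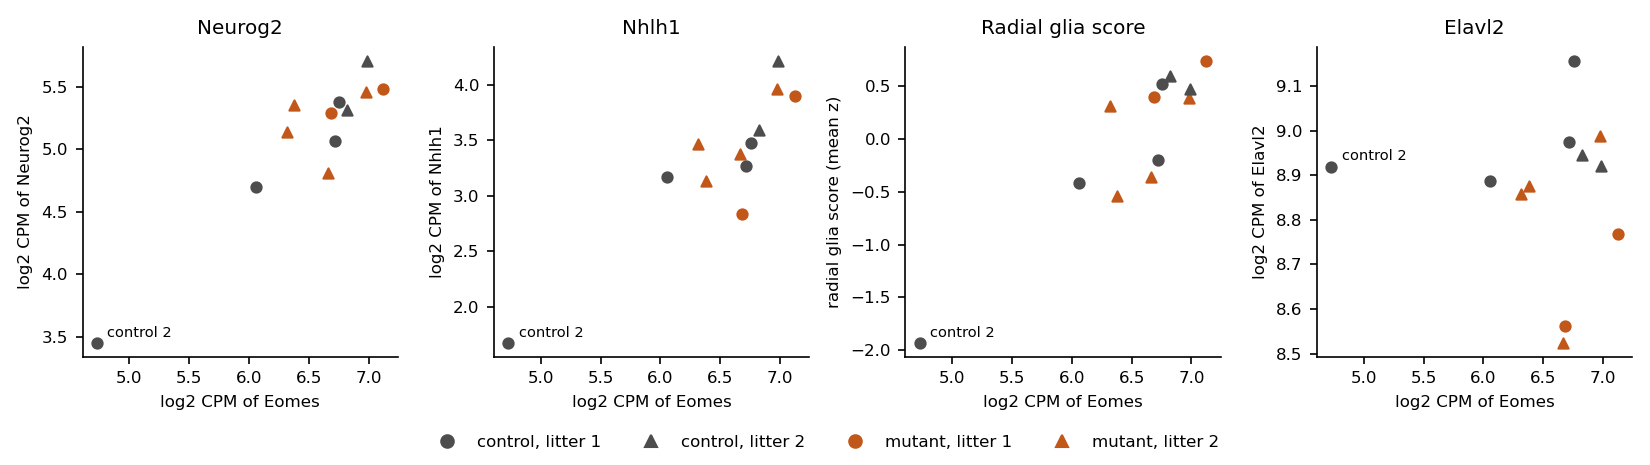
Log2 CPM of Eomes (horizontal axes) against log2 CPM of Neurog2, the same for Nhlh1, the radial glia score (mean z) and log2 CPM of Elavl2, a point per library. Control 2 lies alone at the lower left of the first 3 panels, and without controls 2 and 3 the r of Eomes with Neurog2 goes from 0.94 to 0.53.

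Radial glia genes moved with the same libraries. The mean score of 11 radial glia genes, among them the stem cell genes Hes1 and Pax6, correlated with Eomes at r = 0.91 (adjusted permutation p = 0.0216 over 36 relations) and rho = 0.85 (0.0382). Without controls 2 and 3 r was 0.61 (permutation p = 0.0608), so here too its size rested on those samples. Without control 2 alone r was 0.70. Within the litters r was 0.97 and 0.57. By genotype 0 of the 11 were called, with a median log2 fold change of -0.04 and a summed 967 to 1416 CPM in mutants and 683 to 1349 CPM in controls, and Sox2 of that list is listed at 0. Btg2 went with the score of 12 mitosis genes at r = 0.80 (adjusted permutation p = 0.0292) and rho = 0.75 (0.0757), at r = 0.74 (permutation p = 0.0204) without mutant 5 and control 2, and at 0.83 and 0.75 within the litters. The genes most like Eomes over the 12 libraries, out of 9146 compared, were Neurog2 (r = 0.94), Otx1 (r = 0.92), Ier5 (r = 0.92), Prrc2a (r = 0.91) and Gmeb1 (r = 0.91). Otx1 was also the gene most like Nhlh1 (r = 0.96). The closest to Btg2 was Gli3 (r = 0.93), to Neurog2 E130114P18Rik (r = 0.94), to Rhbdl3 Igsf21 (r = 0.90), to Elavl2 Furin (r = 0.90), to Gadd45g Rhobtb1 (r = 0.89), to Sstr2 Babam1 (r = 0.88) and to Insm1 Txlng (r = 0.84). These are the highest of many values, and all share depth and composition of the same libraries.

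Of 12 other genes of intermediate progenitors 9 could be tested, 0 passed by genotype and 1 rose in litter 2. That gene was Rnd2, a small GTPase that NEUROG2 switches on for neuronal migration, at 0.69 (SE 0.129, adjusted p = 0.0123), and by genotype Rnd2 had -0.24 (adjusted p = 0.698). The median genotype value of the 9 was -0.20. Lzts1, which drives delamination of newborn cells from the ventricle, had -0.20 (adjusted p = 0.693), at means of 214 and 243 CPM, and the POU factor Pou3f2 had -0.36 (0.710). Of 11 partners and inhibitors of the proneural factors 9 were tested and 0 passed by genotype or litter, among them the E proteins Tcf4 (-0.15), Tcf12 (0.14) and Tcf3 (-0.04). The 5 corepressor partners of INSM1 also gave 0 calls, with the histone demethylase Kdm1a at -0.08, the deacetylase Hdac2 at 0.04 and Rcor1 at 0.04.

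Downstream, 11 of 12 genes of newborn neurons were tested and 0 passed by genotype, with the netrin receptor Unc5d at -0.14, Sox11 at 0.06 and the microtubule protein Dcx at -0.03. By litter Tbr1, the T-box factor that follows Eomes in postmitotic neurons, rose in litter 2 by 0.74 (SE 0.0988, adjusted p = 0.00125), and Stmn2, a growth cone protein, fell by 0.53 (SE 0.122, adjusted p = 0.042). Tbr1 was also the 1 gene past the threshold by litter among 10 tested family relatives and ligands of 22, where Elavl3 had a genotype value of -0.05 and Elavl4 of 0.15. Of 12 mitosis genes 0 passed by genotype (Mki67 -0.41, SE 0.290, adjusted p = 0.791, Top2a -0.24, Kif11 -0.04). By litter all 12 mitosis genes had positive values with a median of 0.54, and the kinetochore motor Cenpe rose by 0.65 (SE 0.146, adjusted p = 0.0319). Btg2 is known as an early response and p53 target gene as well, and over the 12 libraries it went with the mean score of the tested immediate early genes at r = 0.81 and with that of the tested p53 targets at r = 0.63, given as descriptions of libraries that share depth and composition. Of such genes 2 of 9 immediate early genes and 4 of 8 p53 targets passed the filter, and 0 were called by genotype or litter: Jun had 0.29, Dusp1 -0.07, Trp53inp1 -0.21, Mdm2 0.01 and Ccng1 -0.15. Nr4a1, the next most abundant immediate early gene, was below the filter with means of 2.67 CPM (mutants) and 2.37 CPM (controls). Of the listed genes Neurod1, Pou3f3, Tubb3, Sox2, Fosb, Neurog3 and Rhbdl1 are listed at 0 in all 12 libraries. Since Tubb3 is used by every neuron, these zeros were not read as absence.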

How the data were processed

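STAR 2.5.2a, cutadapt 1.13, HTSeq 0.6.1p1, UMI-tools 0.5.3, edgeR 3.20.9 and bcl2fastq 2.17 are named, with mm10, in the submitters' processing notes. Libraries were made by ClickSeq, in which azido-nucleotides stop reverse transcription and an adaptor is clicked on, from rRNA-depleted total RNA, per the labels' protocols. The authors deposited raw counts per Ensembl gene, 1 table per library, with no normalization. Not given in the sources used here: annotation release, counting mode, use of strand and collapsing of molecular tags.

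The 5 closing entries that name no gene (20.7 to 31.6% of a table) were left out. Symbols, coordinates and exon lengths came from GENCODE M21 (GRCm38): 47734 identifiers matched with version, 3985 without and 193 not at all. Genes passing filterByExpr (minimum count 10, 10678 genes) were fitted in edgeR 4.0.16 (R 4.3.3) with TMM and terms for litter, sex and genotype (8 residual degrees of freedom). A Benjamini-Hochberg adjusted p under 0.05 over all genes tested was called. The script was tested on simulated data. DESeq2 1.42.0, limma-voom (limma 3.58.1), other terms, filters and subsets of libraries were alternatives. Correlations used log2 CPM with a prior count of 2, and permutation tests used scipy 1.17.1. No 2 libraries were copies (chi-square per degree of freedom 1.86 to 15.1 over 66 pairs).

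The members and lists were chosen with earlier results of these data known. Of each list the text names the members called by genotype or litter and the 3 with the highest mean CPM, and of genes most like a member the 5 highest r for Eomes and the highest for each other, among genes of at least 10 CPM. The labels do not say that each library is a separate embryo, so p-values measure the spread between these samples, which may be technical.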

Additional observations from a re-analysis of the deposited data

Results flagged for a closer look

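In the controls, Elavl2 stood at 569.7 CPM in control 1 against 472 to 502 CPM in the 5 others. The gap to the next control was 0.693 of the whole range, above Dixon's 95% critical value for 6 samples. Of the 20 sets of 6 values checked (10 genes in mutants and in controls), this was the 1 past that value, and chance alone passes about 1 in 20.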

How the results depend on the processing

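By genotype, 1 in place of 0 of the genes passed with DESeq2 (95 genes of all tested passed in place of 23), no filter (261), without the sex term (77), with the striatal score (33), in litter 2 alone (64) and in females alone (44), each time Rhbdl3, and without the litter and sex terms (141), there Gadd45g. Leaving out 1 library gave 0 to 1. Without mutants 1 and 4, 0 of all genes passed. By litter, 0 in place of 1 passed with limma-voom (126 of all genes in place of 140), in females alone (32) and without mutants 1 and 4 (45), and leaving out 1 library gave 0 to 1. Without mutants 1 and 4 no male mutant is left, and fewer samples are tested. For the other changes the cause was not tested. Counts by sex and by interaction stayed at 0 in all 17 alternatives.

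Signs turned for genes that were not called. By genotype, Eomes went to 0.14 without the sex term, 0.20 without both terms and 0.075 with the striatal score, Neurog2 to 0.044, 0.16 and 0.026, Nhlh1 to 0.14 without both terms, and Btg2 to -0.24 and Insm1 to -0.072 in litter 2 alone. Leaving out 1 library gave -0.27 to 0.00061 for Eomes, -0.14 to 0.20 for Btg2 and -0.050 to 0.089 for Insm1. By litter, Eomes went to -0.10 and Neurog2 to -0.0017 in females alone, and Gadd45g to -0.020 and Elavl2 to -0.040 without mutants 1 and 4. Leaving out 1 library gave -0.0070 to 0.37 for Eomes, -0.056 to 0.25 for Gadd45g, -0.10 to 0.090 for Insm1 and -0.017 to 0.10 for Elavl2. Gadd45g, Sstr2, Rhbdl3 and Elavl2 kept their genotype sign in all 23 alternatives. No paired analysis was possible because replicate numbers only name samples, and litter is a term of the model. Gadd45g, Nhlh1 and Neurog1 rest on few counts per library, which limits their precision.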
